A study of Mus musculus with 30 samples.

Results

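The last step of the age series was the change of the control ventricle between postnatal day 30 (P30) and postnatal day 60 (P60). All samples labelled as control at these ages were taken, 3 arrays at P60 and 3 at P30, which is 6 of the 30 arrays of the series. Both groups were male mice of an FVB/B6 hybrid background with the genotype MCK-Cre, so each animal carried the Cre transgene, which the muscle creatine kinase promoter drives in heart and skeletal muscle, and the labels name no floxed *Sox6* allele for them. Total RNA of the cardiac ventricle, with every cell type in it, was hybridised to 1-colour Illumina mouse whole-genome bead arrays, and the labels give the 3 arrays of a group as biological replicates. The Sox6 KO mice of the same ages (Sox6loxp/loxp; MCK-Cre, 3 arrays at P60 and 3 at P30, same background), in which the same Cre deletes *Sox6* in striated muscle, enter only where the change was compared between genotypes. No tested probe carried the name *Sox6*, so the deletion itself was not checked here.

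Between weaning and young adulthood the mouse ventricle grows more slowly than before, few of its myocytes divide, and fibroblasts lay down less new matrix, while the collagen and elastin fibres already built turn over slowly. The myocyte takes most of its ATP from fatty acids, with glucose, lactate and branched-chain amino acids as further fuels. Heart cells also hold a circadian clock, in which CLOCK and its partner BMAL1 switch on the *Per* genes and the output factors *Dbp* and *Tef*, and the PER proteins and the receptor NR1D1 act back on it.

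The arrays of an age were alike. Log2 signals correlated between 0.993 and 0.994 among the P60 arrays, at 0.995 among the P30 arrays and between 0.981 and 0.986 across the ages. Of the 17997 probes tested, 14801 to 15427 were above background on a P60 array and 14866 to 15678 on a P30 array. The unnormalized medians did move with age (97.8 to 104.3 at P60 and 123.6 to 126.0 at P30), as did the background threshold (105.0 to 111.4 and 133.3 to 136.2), and the medians of the Sox6 KO arrays moved alike (96.1 to 102.5 and 125.1 to 126.1). Quantile normalization makes the distributions equal, and the part of this shift in single results was not tested. A gene name was at hand for 6515 of the tested probes. Chip, hybridisation batch and the hour at which hearts were taken are not stated by any source used here.

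With a call defined as an adjusted p below 0.01 in limma and 1.5-fold or more, 241 probes were higher at P60 (1.34% of those tested) and 306 were lower (1.70%). Among 6258 named genes with 1 probe each, 138 (2.21%) were called higher and 175 (2.80%) lower. The P60 and P30 arrays did not overlap for any of the 547 called probes, nor for 37.5% of all probes tested. With each array scaled to a common median in place of quantile normalization the split was 157 higher and 364 lower. Of the called probes, 23 of the higher and 42 of the lower ones reached 2-fold. The size of a change depends on the processing, as no background was subtracted from these intensities. After normexp correction with negative controls, 753 probes were called higher and 794 lower at the same thresholds. At the wider threshold used for gene lists, an adjusted p under 0.05, 15.5% of the named genes were higher at P60 and 12.9% were lower, with a median log2 change of 0.01, and the arrays of the ages did not overlap for 47.2% of them. These shares are the background for the counts that follow.

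**Figure D1:**
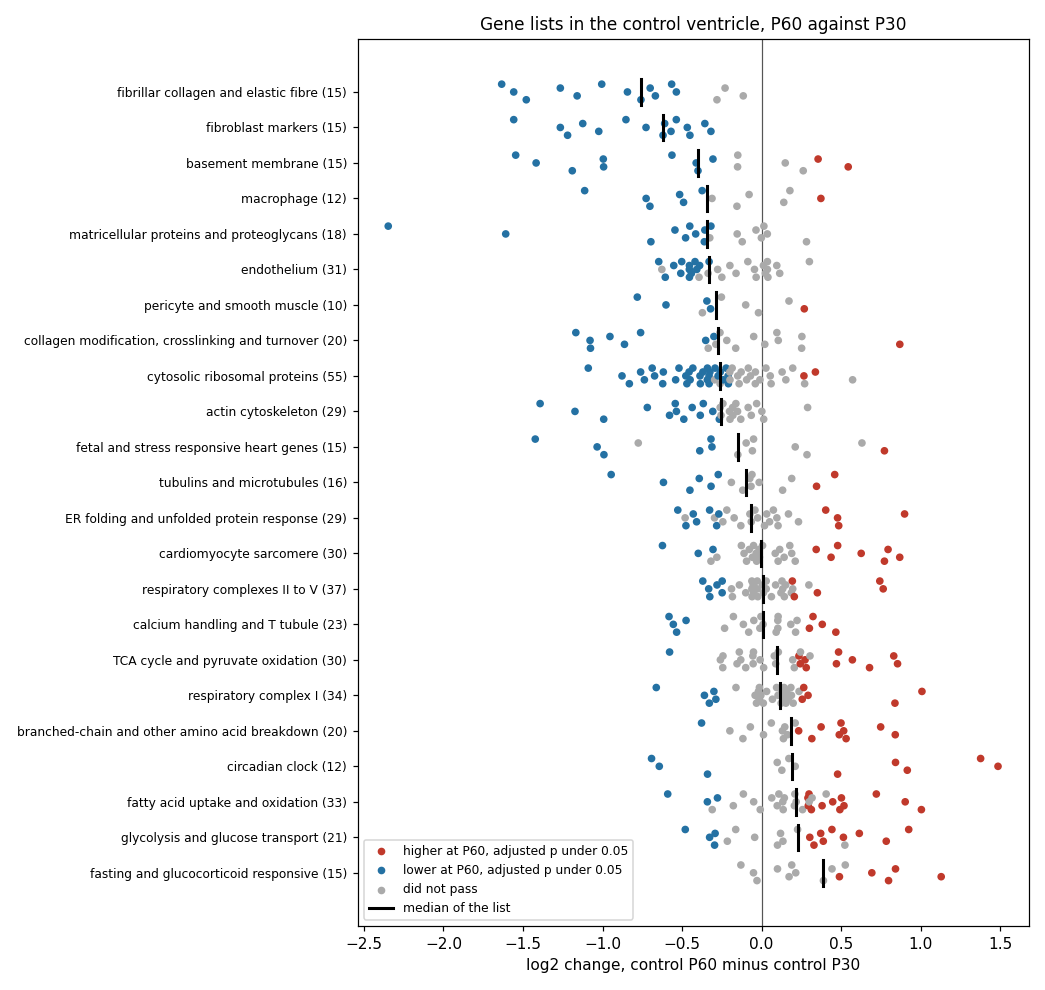
Log2 change of every measured member of 23 gene lists, control P60 minus control P30, with list sizes in brackets, lists ordered by their median (black bar), and members that passed an adjusted p of 0.05 in red (higher at P60) or blue (lower). Matrix and fibroblast lists lie left of 0 with medians down to -0.76, and the fatty acid, glucose, fasting and clock lists have medians above 0.

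Genes of the fibrous matrix were lower at P60. Of 15 measured genes for fibrillar collagens and elastic fibres, 12 were lower at P60 and 0 were higher, with a median log2 change of -0.76. *Eln*, which encodes elastin, the extensible core of elastic fibres, had log2 signals of 7.30, 7.15 and 7.27 on the P60 arrays and 8.74, 9.03 and 8.86 on the P30 arrays. Each P60 array lay more than 1 log2 unit below each P30 array, and the fitted change was -1.63 ± 0.19 (SE, adjusted p = 8.02e-07), which makes P30 3.10-fold higher. *Col1a1*, a chain of type I collagen, the main load-bearing fibre of the heart, gave 7.95, 7.55 and 7.72 at P60 against 9.17, 9.54 and 9.19 at P30 (-1.56 ± 0.20, SE, adjusted p = 2.49e-06). *Fbn1*, fibrillin, on which elastin is laid down, gave 8.05, 7.78 and 7.89 at P60 against 9.26, 9.62 and 9.27 at P30 (-1.48 ± 0.09, SE, adjusted p = 1.80e-11). The microfibril proteins behind elastin followed the same course. *Mfap5* changed by -1.27 and *Mfap4* by -1.16, and *Col6a3*, a chain of the beaded filament collagen around cells, by -1.005 (adjusted p = 2.03e-06, 3.58e-07 and 4.80e-07).

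Secreted proteins that bind the matrix without building fibres, the matricellular proteins and proteoglycans, were lower for 10 of 18 measured members and higher for 0, with a median of -0.34. *Spon2*, spondin, a secreted protein with roles in cell adhesion and innate defence, had the widest gap of any named probe. It gave 7.14, 7.29 and 7.43 at P60 against 9.44, 9.81 and 9.65 at P30, a change of -2.35 ± 0.17 (SE, adjusted p = 1.26e-10) or a 5.09-fold higher signal at P30. *Sparc*, osteonectin, which binds collagen and helps it to be processed into fibres, gave 11.04, 10.79 and 10.76 at P60 against 12.28, 12.53 and 12.60 at P30 (-1.61 ± 0.10, SE), and a second probe of the gene changed by -1.49. Neither probe of *Sparc* had overlapping arrays. Smaller decreases were found for biglycan (*Bgn*, -0.70), *Igfbp5* (-0.54), osteoglycin (*Ogn*, -0.48) and fibronectin (*Fn1*, -0.45), all with adjusted p between 3.90e-05 and 0.0104.

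**Figure D2:**
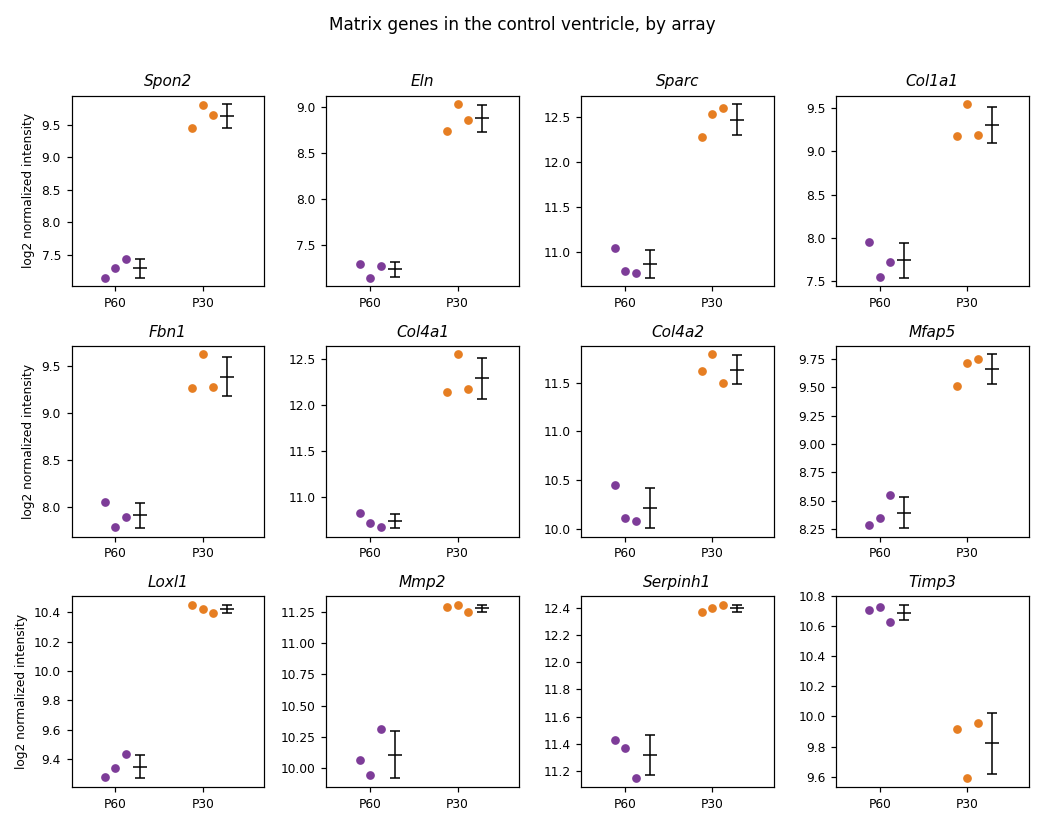
Log2 normalized intensity of 12 matrix genes on each of the 3 control arrays at P60 (left) and at P30 (right), with the mean and SD beside the points. In 11 of the 12 panels every P60 array lies below every P30 array, and in the panel of *Timp3* every P60 array lies above.

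The machinery that folds, crosslinks and cuts collagen was lower in part. Of 20 measured genes, 8 were lower, 1 was higher and 11 did not pass. *Serpinh1*, the collagen chaperone of the endoplasmic reticulum, gave 11.43, 11.37 and 11.15 at P60 against 12.37, 12.40 and 12.42 at P30 (-1.08, adjusted p = 3.67e-07). *Loxl1*, which crosslinks elastin, gave 9.28, 9.34 and 9.43 at P60 against 10.45, 10.42 and 10.40 at P30 (-1.08, adjusted p = 1.69e-09). Genes for proteases were lower too. *Mmp2*, a gelatinase, changed by -1.17, *Mmp14*, its membrane-bound activator, by -0.95, and *Adamts2*, which trims procollagen ends, by -0.86. The gene that went the other way was *Timp3*, a matrix-bound inhibitor of these proteases, with 10.71, 10.73 and 10.63 at P60 against 9.92, 9.59 and 9.96 at P30 (1.83-fold, adjusted p = 1.79e-05).

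Genes for the basement membrane, the sheet around myocytes and vessels, were lower for 9 of 15 and higher for 2, with a median of -0.40. The pair *Col4a1* and *Col4a2*, whose products coil together into the type IV collagen network, led this list. *Col4a1* gave 10.83, 10.72 and 10.68 at P60 against 12.14, 12.55 and 12.18 at P30 (-1.55 ± 0.12, SE, adjusted p = 1.69e-09), and *Col4a2* gave 10.45, 10.12 and 10.08 against 11.62, 11.79 and 11.49 (-1.42 ± 0.12, SE, adjusted p = 2.62e-09). These neighbours are read in opposite directions from start sites that lie 21 bases apart on chromosome 8 (RefSeq, GRCm38.p6). Their promoter windows, each from 250 bases before to 50 after the start, share 78 bases, chr8:11312777-11312854. The window of *Col4a1* is shown 5′ to 3′ because both genes moved together, with the bases it shares with the *Col4a2* window in capitals.
*Col4a1*, chr8:11312777-11313076, minus strand: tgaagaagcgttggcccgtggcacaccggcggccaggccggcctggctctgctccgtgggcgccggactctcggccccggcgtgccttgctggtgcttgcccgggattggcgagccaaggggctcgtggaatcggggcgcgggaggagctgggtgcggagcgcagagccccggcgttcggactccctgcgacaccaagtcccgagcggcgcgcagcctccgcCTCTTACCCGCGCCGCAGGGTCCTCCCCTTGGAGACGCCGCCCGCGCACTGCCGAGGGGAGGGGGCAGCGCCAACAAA
*Col15a1*, a collagen at the outer face of the basement membrane, changed by -1.19, *Col4a5* by -0.995, and nidogen (*Nid1*), which ties laminin to collagen IV, by -0.99. The 2 members that were higher at P60 belong to the link between laminin and the cell: *Lama5*, a laminin chain (0.36, adjusted p = 0.00542), and *Dag1*, dystroglycan, the laminin receptor of the myocyte (0.54, adjusted p = 0.00107).

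Markers of the cells that make matrix and of other non-muscle cells were measured beside these results. All 9 fibroblast markers fixed for the cell type check were lower at P60, and their summed normalized intensity was 19147 to 19995 at P60 against 24627 to 26625 at P30. *Tcf21*, a fibroblast transcription factor, changed by -0.85, *Pdgfra*, a growth factor receptor that defines these cells, by -0.47, and *Dcn*, decorin, by -0.32. Thus receptor and transcription factor genes of fibroblasts were lower as well. In the longer fibroblast list 15 of 15 genes were lower (median -0.62), with *Fstl1* (-1.22), *S100a6* (-1.12) and *Vim* (-1.02) among them. *Col1a1*, *Mfap5*, *Lum* and *Dcn* count in a matrix list as well. In RNA of whole ventricle, fewer cells of a type and less RNA per cell cannot be told apart.

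Several vessel and immune cell markers were lower too, while the myocyte markers overlapped in sum. Of 8 endothelial markers measured, 5 were lower and 0 higher (summed intensity 7177 to 7310 at P60 and 8922 to 9289 at P30), and in a list of 31 endothelial genes 13 were lower and 0 higher, with a median of -0.33. *Ramp2*, a receptor partner of adrenomedullin, changed by -0.65, *Cldn5*, a tight junction protein, by -0.55 and *Emcn* by -0.45, while *Pecam1*, found on all endothelium, had signals of 9.22, 9.33 and 9.14 at P60 against 9.12, 9.46 and 9.22 at P30. The 3 measured markers of pericytes and smooth muscle were lower (4757 to 5612 at P60 and 7096 to 9039 at P30), with *Rgs5* at -0.78, *Acta2* at -0.60 and *Pdgfrb* at -0.34. In the longer list of 10 such genes 4 were lower, 1 was higher and 5 did not pass, and the lower ones numbered 1 without P30 replicate 1 and 2 without P30 replicate 2 or P60 replicate 3. Of 5 macrophage markers, 3 were lower (3844 to 3902 at P60 and 5509 to 6877 at P30). *Lyz2*, lysozyme of macrophages, gave 10.42, 10.48 and 10.54 at P60 against 11.32, 11.70 and 11.75 at P30 (-1.11, adjusted p = 3.36e-06), and in the longer macrophage list of 12 genes the lysosomal protease *Ctsb* was the 1 member that was higher (0.37). The 10 cardiomyocyte markers summed to 249303 to 260922 at P60 and 249792 to 257158.5 at P30, so the groups overlapped, with 1 marker higher (*Mybpc3*, 0.34) and 1 lower (*Tnni3*, -0.62). Most of this sum comes from *Myl3*, *Tnnc1*, *Myl2*, *Actc1* and *Myh6*, which are among the brightest genes measured. Quantile normalization holds the brightest values nearly equal on all arrays, so this overlap cannot show whether the myocyte share changed. Red cell markers overlapped as well (29245 to 42258 and 29074 to 48941), and so did the atrial markers *Nppa* and *Myl4* (3014 to 6704 and 5820 to 11461). All of the measured defining markers of these cell types were above background at both ages. The part of cell composition in the matrix result was not tested. Defining markers of lymphocytes, adipocytes, Schwann cells and skeletal muscle were not analysed here, since no tested probe carried their names.

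Genes of the cell's inner skeleton and of its ribosomes moved in the same direction as the matrix. Of 29 genes for the actin cytoskeleton, 13 were lower and 0 higher (median -0.25), and 8 were lower without P30 replicate 2 or without P60 replicate 3. *Tmsb10*, a thymosin that holds actin monomers, gave 10.15, 10.05 and 10.01 at P60 against 11.19, 11.60 and 11.59 at P30 (-1.39, adjusted p = 8.01e-06). *Myh9*, the non-muscle myosin heavy chain, gave 9.19, 8.58 and 8.18 against 9.75, 10.09 and 9.63 (-1.17), and *Arpc1b*, a subunit of the complex that branches actin filaments, changed by -0.99. Among 16 tubulin and microtubule genes, 6 were lower, led by *Tuba8* (-0.95), and 2 were higher, *Stmn1*, which destabilises microtubules (0.46), and *Tuba4a* (0.35), of which 1 passed without P30 replicate 1 or 2 or P60 replicate 2 or 3. The markers of non-muscle cells given above moved with these genes, and their part in this result was not tested.

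Cytosolic ribosomal proteins were lower for 31 of 55 genes, higher for 2 and not past the threshold for 22, with a median of -0.26. *Rps23* gave 10.33, 9.73 and 9.92 at P60 against 11.10, 11.16 and 10.98 at P30 (-1.09 ± 0.10, SE, adjusted p = 1.63e-08). *Rps28*, *Rpl11* and *Rpl10a* changed by -0.76, -0.74 and -0.69, and the groups did not overlap for any of the 3. The exceptions were *Rpl10* (0.34) and *Rpl22* (0.27), and under median scaling neither passed. The higher genes numbered 4 without P60 replicate 1, and 1 without P30 replicate 1 or 2 or P60 replicate 2 or 3. Ribosomal protein genes have many near-identical processed copies in the genome, so a probe may bind more than 1 of them.

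Genes of the circadian clock and its outputs were among the largest increases. Of 12 measured clock genes, 5 were higher and 3 lower. *Per2*, a repressor of the clock loop, gave 9.02, 9.26 and 9.19 at P60 against 7.87, 7.15 and 7.98 at P30 (1.49 ± 0.20, SE, adjusted p = 7.61e-06). *Dbp*, a transcription factor that carries the rhythm to output genes through the D-box, gave 11.95, 11.90 and 12.04 at P60 against 10.99, 9.87 and 10.89 at P30 (1.38 ± 0.18, SE, adjusted p = 4.60e-06). *Tef*, its relative, gave 9.18, 8.98 and 9.27 against 8.46, 7.91 and 8.31 (0.92, adjusted p = 4.99e-05). The P60 arrays were close to each other for *Dbp*, and replicate 2 at P30 lay below the other two for all 3 genes. *Per1* gave 8.39, 9.04 and 9.27 at P60 against 8.17, 7.59 and 8.42 at P30, so that its groups overlapped (0.84 ± 0.26, SE, adjusted p = 0.0207). *Csnk1e*, a kinase that marks PER proteins for breakdown, changed by 0.48 (adjusted p = 2.38e-04).

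The 3 clock genes that were lower at P60 are regulators of transcription, and without P30 replicate 2 the count was 1 lower and 4 higher. *Nr1d1*, the receptor REV-ERB alpha, which represses *Bmal1* and other genes, gave 8.08, 7.88 and 7.78 at P60 against 8.57, 8.42 and 8.68 at P30 (-0.64, adjusted p = 1.48e-04). *Nfil3*, which competes with DBP for the D-box, gave 8.40, 8.51 and 8.36 against 8.87, 9.57 and 8.91 (-0.69, adjusted p = 0.00395), and *Clock* gave 9.15, 9.05 and 9.11 against 9.32, 9.64 and 9.38 (-0.34, adjusted p = 0.00529). P30 replicate 2 was the highest array for *Nfil3* and *Clock* and the lowest for *Per2*, *Dbp* and *Tef*. The other 4 members did not pass, namely *Nr1d2* (0.10), *Bhlhe40* (0.13), *Csnk1d* (0.17) and *Rora* (0.21), with adjusted p between 0.231 and 0.730. Expression of these genes depends on the hour of the day, and the part of collection time in the result was not tested.

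**Figure D3:**
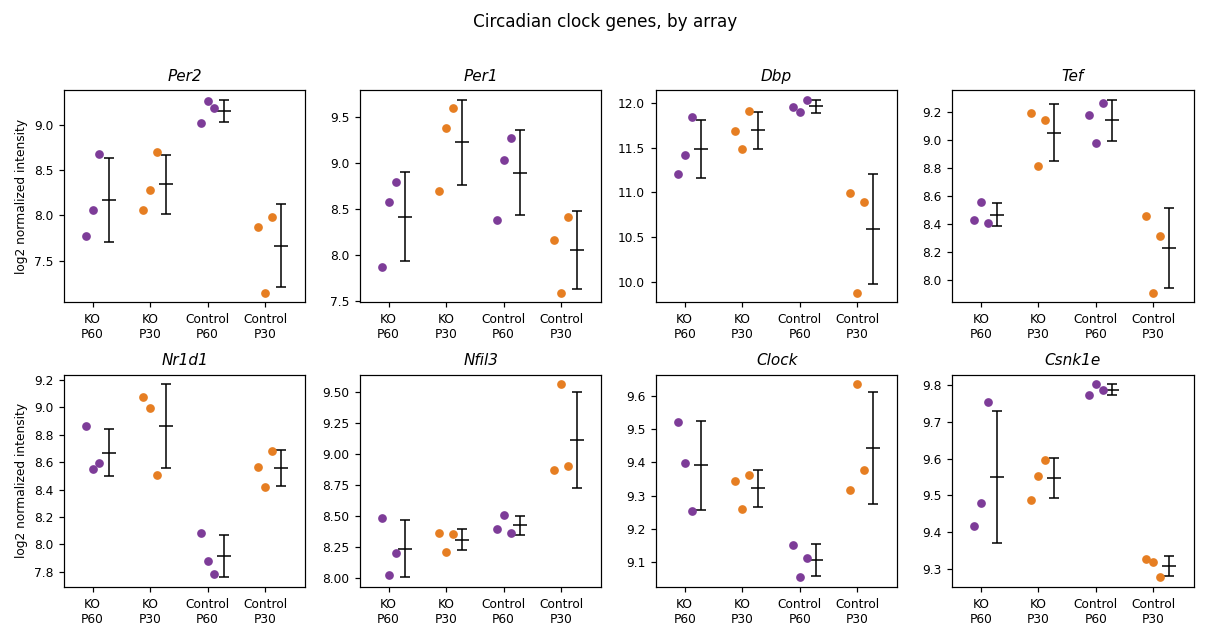
Log2 normalized intensity of 8 clock genes on each of 3 arrays per group, with mean and SD, for Sox6 KO ventricles (P60, then P30) and control ventricles (P60, then P30). In the control groups *Per2*, *Dbp*, *Tef* and *Csnk1e* are higher on every P60 array and *Nr1d1*, *Nfil3* and *Clock* are lower, while the KO groups overlap for *Per2* and *Dbp* and run the opposite way for *Tef*.

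Promoter windows of RefSeq (GRCm38.p6, 300 bases) were searched on both strands for the E-box CACGTG, which CLOCK and BMAL1 bind, the D-box TTATGNAA, which DBP and TEF bind, and the ROR element TAGGTCA, which NR1D1 and RORA bind. Windows were at hand for 11 of 14 genes (the 12 clock genes, *Nampt* and *Noct*), and those of *Per2*, *Bhlhe40* and *Csnk1d* were not used here. *Per1* and *Tef* held an E-box, *Per1* and *Noct* a D-box and *Nfil3* a ROR element, and the motifs did not overlap. Of all 27025 genes with a window, 8.09% held the E-box, 3.99% the D-box and 2.97% the ROR element in some window. Of the 32851 windows themselves, 7.15%, 3.38% and 2.61% held these motifs. The windows with a match are shown 5′ to 3′, with the motif in capitals, for genes higher at P60 (*Per1* with both motifs, *Tef*, by the first of its 2 windows, and *Noct*) and for *Nfil3*, which was lower.
*Per1*, chr11:69098699-69098998, plus strand: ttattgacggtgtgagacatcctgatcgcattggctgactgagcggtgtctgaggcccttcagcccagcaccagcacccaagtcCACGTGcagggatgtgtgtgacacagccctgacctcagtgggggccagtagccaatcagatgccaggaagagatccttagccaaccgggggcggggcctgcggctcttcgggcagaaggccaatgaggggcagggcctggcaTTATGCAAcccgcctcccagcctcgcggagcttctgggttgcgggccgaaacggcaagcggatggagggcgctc
*Tef*, chr15:81802423-81802722, plus strand: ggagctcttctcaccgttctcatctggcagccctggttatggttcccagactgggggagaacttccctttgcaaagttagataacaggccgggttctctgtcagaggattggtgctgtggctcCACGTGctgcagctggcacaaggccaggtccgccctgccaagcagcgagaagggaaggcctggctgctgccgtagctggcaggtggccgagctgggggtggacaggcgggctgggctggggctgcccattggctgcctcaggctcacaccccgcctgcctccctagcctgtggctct
*Noct*, chr3:51224197-51224496, plus strand: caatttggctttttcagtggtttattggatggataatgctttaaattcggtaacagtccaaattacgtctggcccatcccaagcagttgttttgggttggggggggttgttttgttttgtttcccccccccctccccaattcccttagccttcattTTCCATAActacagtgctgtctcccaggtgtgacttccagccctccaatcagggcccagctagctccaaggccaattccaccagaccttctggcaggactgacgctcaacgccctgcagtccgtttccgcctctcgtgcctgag
*Nfil3*, chr13:52980990-52981289, minus strand: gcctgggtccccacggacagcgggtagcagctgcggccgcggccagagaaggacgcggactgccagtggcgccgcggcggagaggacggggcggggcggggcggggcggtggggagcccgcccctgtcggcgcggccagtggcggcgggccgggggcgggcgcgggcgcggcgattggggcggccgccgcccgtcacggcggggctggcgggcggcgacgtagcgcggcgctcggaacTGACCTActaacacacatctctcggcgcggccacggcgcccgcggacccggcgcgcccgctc

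Genes that link daily rhythm to metabolism and stress were also among those with the largest increases. *Nampt*, the rate-limiting enzyme of NAD salvage, whose transcription the clock drives, gave 9.85, 9.74 and 9.76 at P60 against 8.44, 8.33 and 8.46 at P30 (1.37 ± 0.14, SE, adjusted p = 7.46e-08). *Noct*, nocturnin, a rhythmic phosphatase of NADPH, gave 8.88, 9.17 and 8.91 against 7.88, 7.72 and 7.77 (2.30-fold, adjusted p = 4.26e-05). No array of 1 age reached the range of the other for either gene. Of 15 genes that respond to fasting or glucocorticoids, 5 were higher and 0 lower (median 0.39): *Cebpb* (1.13), *Per1*, the muscle ubiquitin ligase *Fbxo32* (0.80), *Klf9* (0.69) and the kinase *Sgk1* (0.49, adjusted p = 0.0493). This count was 8 without P60 replicate 1 and 3 without P60 replicate 2 or 3. *Cebpb*, a transcription factor of the acute phase and of fat cell formation, gave 10.40, 11.40 and 11.06 at P60 against 9.88, 9.60 and 9.99 at P30.

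Of 29 genes for protein folding in the endoplasmic reticulum and the unfolded protein response, 4 were higher (13.8%), 7 lower (24.1%) and 18 did not pass (median -0.06). Among all named genes 15.5% were higher and 12.9% lower, so the higher share was near the background. The lower genes numbered 3 without P30 replicate 3 and 4 without P30 replicate 2 or P60 replicate 1. The 4 higher genes were *Herpud1*, which brings misfolded proteins to degradation (12.95, 13.43 and 13.44 at P60 against 12.35, 12.43 and 12.35 at P30, 1.87-fold, and 2.17-fold by a second probe), *Dnajb9* (0.49), *Syvn1* (0.48) and *Ddit3* (0.40). The leading members that were lower, *Ssr2* (-0.53), of the translocon for secreted proteins, and *Pdia4* (-0.33), a disulfide isomerase, act on proteins that enter the secretory path. *Rhobtb1*, an adaptor of ubiquitin ligases, belonged to none of the lists and gave 11.84, 12.02 and 11.84 at P60 against 11.13, 10.44 and 10.84 at P30 (1.10, adjusted p = 7.15e-05).

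Fuel metabolism was higher in part. Of 33 genes for fatty acid uptake and oxidation, 12 were higher and 3 lower (median 0.22), and under median scaling 7 were higher and 4 lower. *Decr1*, which handles unsaturated fatty acids in beta-oxidation, gave 9.98, 10.06 and 9.67 at P60 against 8.86, 8.88 and 8.95 at P30 (1.01 ± 0.20, SE, adjusted p = 6.60e-04). *Hadhb*, a subunit of the trifunctional protein, changed by 0.72, *Acadm*, the medium-chain dehydrogenase, by 0.52, *Lpl*, lipoprotein lipase, by 0.49, and *Dgat2*, which makes triglyceride from fatty acids, by 0.90. The 3 lower members were the lipid droplet protein *Plin5* (-0.59), the thioesterase *Acot13* (-0.34) and the nuclear receptor *Esrra* (-0.28). Of the genes for lipid storage, *Dgat2* was thus higher and *Plin5* lower.

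In the citric acid cycle and pyruvate oxidation, 10 of 30 genes were higher and 1 lower, under median scaling 6 were higher and 3 lower, and without P60 replicate 3 there were 6 higher. *Idh2*, the mitochondrial isocitrate dehydrogenase, gave 14.00, 14.01 and 14.10 at P60 against 13.20, 13.17 and 13.25 at P30 (0.83 ± 0.08, SE, adjusted p = 2.75e-08), and *Suclg1*, of succinyl-CoA ligase, gave 13.88, 14.06 and 14.08 against 13.13, 13.15 and 13.18 (0.86 ± 0.08, SE, adjusted p = 1.58e-08). *Mdh2* was the lower member (12.38, 12.06 and 11.66 at P60 against 12.73, 12.62 and 12.48 at P30, adjusted p = 0.00265). Breakdown of branched-chain and other amino acids was higher for 9 of 20 genes and lower for 1, the proline oxidase *Prodh* (-0.38). Among its higher members were enzymes of the path of valine and leucine, namely the ketoacid dehydrogenase subunits *Bckdha* (0.50) and *Dbt* (0.49), *Ivd* (0.75), *Hibadh* (0.52) and *Aldh6a1*, which gave 11.88, 11.86 and 11.88 at P60 against 11.15, 11.03 and 10.92 at P30 (0.84).

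Of 21 genes for glucose transport and glycolysis, 9 were higher and 4 lower, and the lower ones numbered 1 without P30 replicate 1, 2 without P60 replicate 3 and 2 with normexp background correction. *Hk2*, the hexokinase of muscle, gave 13.28, 13.18 and 13.28 at P60 against 12.45, 12.48 and 12.47 at P30 (0.78, adjusted p = 5.42e-05), *Pfkfb2*, the heart enzyme that sets the activator of phosphofructokinase, changed by 0.93, and *Slc2a4*, the insulin-responsive transporter, by 0.37. The lower members were *Aldoa* (-0.48), *Pgk1* (-0.33), *Ldha* (-0.30) and *Eno1* (-0.29). *Tpi1*, whose product works between those of *Aldoa* and *Pgk1*, was higher by 0.51. The respiratory chain had no common direction: 5 of 34 complex I genes were higher and 5 lower, and 5 of 37 genes of complexes II to V were higher and 6 lower. These are 14.7% and 14.7% for complex I and 13.5% and 16.2% for complexes II to V. Among all named genes 15.5% were higher and 12.9% lower, so these shares are near the background. *Ndufb4* (1.01), *Atp5a1* (0.74) and *Cox7b* (0.77) stood on one side and *Ndufb10* (-0.66), *Ndufb3* (-0.36), *Ndufa1* (-0.33) and *Cox6c* (-0.33) on the other. These members are examples from each side, and counts so near the background are no result about the complexes. The lower genes of complex I numbered 3 without P30 replicate 3 or P60 replicate 3, and those of complexes II to V numbered 1 without P60 replicate 2 and 2 without P30 replicate 1 or P60 replicate 3. The higher genes of complexes II to V numbered 2 without P30 replicate 3 or P60 replicate 3, 3 without P30 replicate 2 or P60 replicate 2, and 2 under median scaling.

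Contractile genes changed in both directions. Of 30 sarcomere genes, 7 were higher (23.3%), 3 lower (10%) and 20 did not pass (median -0.00), with 5 lower under median scaling. Among all named genes 15.5% were higher and 12.9% lower, so most of those did not pass either. *Xirp2*, which binds actin at the intercalated disc, gave 12.08, 11.98 and 12.14 at P60 against 11.25, 11.23 and 11.11 at P30 (0.87, adjusted p = 8.79e-06), *Tcap*, the Z-disc cap of titin, changed by 0.80 and *Cmya5*, myospryn, by 0.63. *Tnni3*, cardiac troponin I, gave 11.74, 10.99 and 11.31 at P60 against 11.88, 12.005 and 12.01 at P30, and *Myoz2* (-0.40) and *Pdlim5* (-0.31) were lower too. *Myh6*, the adult myosin heavy chain, had 15.31, 15.29 and 15.14 at P60 against 15.17, 15.41 and 15.14 at P30 and overlapping arrays (adjusted p = 0.979). Of 23 genes for calcium handling and T tubules, 4 were higher, namely the calcium buffer *Hrc* of the sarcoplasmic reticulum (0.47), the sodium-calcium exchanger *Slc8a1* (0.38) and the junctophilins *Jph1* (0.32) and *Jph2* (0.30). Another 4 were lower: *Cav3* (-0.58), *Sri* (-0.55), *Calm3* (-0.53) and *Pln* (-0.47), the last with overlapping arrays. Either count is 17.4% of the list, near the shares of all named genes. The higher members numbered 1 without P30 replicate 2 and 2 without P30 replicate 1 or P60 replicate 2.

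Genes of the fetal and the stressed heart were lower for 6 of 15 and higher for 1. *Nppb*, B-type natriuretic peptide, a marker of wall stress, gave 11.95, 12.19 and 11.94 at P60 against 13.66, 13.11 and 13.58 at P30 (-1.42 ± 0.30, SE, adjusted p = 0.00118). *Nppa*, the atrial peptide, gave 11.37, 12.25 and 12.57 against 13.44, 12.45 and 12.62, with overlapping arrays (-0.78, adjusted p = 0.0801). The imprinted neighbours *Igf2*, a fetal growth factor, and *H19*, a noncoding RNA, were lower as well: *Igf2* gave 10.44, 10.18 and 10.37 at P60 against 11.21, 11.60 and 11.29 at P30 (-1.03), and *H19* gave 8.21, 7.94 and 8.14 against 8.95, 9.14 and 9.18 (-0.99). The RNA-binding protein *Igf2bp2* (-0.39) and imprinted *Ndn* (-0.31) were among the lower members. The exception was *Myh7*, the slow myosin heavy chain that the mouse ventricle uses before birth, with 8.16, 8.08 and 8.19 at P60 against 7.29, 7.52 and 7.30 at P30 (0.77, adjusted p = 0.00141).

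A further set among the 15 largest changes each way came from no list. *Tmod4*, a tropomodulin that caps actin filaments in muscle, gave 9.58, 9.62 and 9.45 at P60 against 8.36, 8.47 and 8.45 at P30 (1.12 ± 0.07, SE, adjusted p = 1.80e-11). *Scn4b*, a sodium channel beta subunit, gave 9.58, 9.31 and 9.68 against 8.04, 7.91 and 8.44 (1.39), and the probe named *Amy2b*, an amylase of a multicopy family whose members a probe may not tell apart, gave 9.23, 9.51 and 9.62 against 8.06, 7.80 and 7.80 (1.57). These 2 probes, and the second probes of *Sparc* and *Herpud1*, are named only through a supplementary table of genes that the study chose on these arrays for a difference between genotypes. *Prune2* (1.07), the junctional adhesion molecule *Jam2* (1.03) and the dynein light chain *Dynll2* (1.03) completed the higher set. On the lower side, the receptor phosphatase *Ptpre* gave 9.99, 9.53 and 9.82 at P60 against 10.92, 11.09 and 10.87 at P30 (-1.18). *Cdkn1a*, the cell cycle inhibitor p21, again named only through that table, gave 6.90, 7.01 and 7.05 against 8.15, 8.43 and 8.09 (-1.23) and was above background on 2 of the 3 P60 arrays.

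Set among all 5 control ages, the same end point was reached by different courses. *Eln* had means of 10.24, 9.95, 9.87, 8.87 and 7.24 from the youngest to the oldest age, and *Col4a1* had 13.27 at P14, 12.29 at P30 and 10.74 at P60, so that P30 was a step on a longer decline. *H19* (10.96, 9.09 and 8.10) and *Igf2* (13.36, 11.37 and 10.33) went the same way over P14, P30 and P60. Other genes turned at P30. *Idh2* had 13.72 at P14, 13.21 at P30 and 14.04 at P60, *Suclg1* 13.87, 13.15 and 14.01, and *Atp5a1* 12.96, 12.20 and 12.95, and their P30 mean was the lowest of the 3. *Rps23* (10.44, 11.08 and 9.99), *Lyz2* (9.12, 11.59 and 10.48) and *Tnni3* (11.18, 11.97 and 11.34) had their highest mean of the 3 at P30. *Nampt* differed little between P14 (8.32) and P30 (8.41) before it reached 9.78 at P60. A change from P14 to P30 and one from P30 to P60 share the P30 arrays, so these levels are given side by side without a test.

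**Figure D4:**
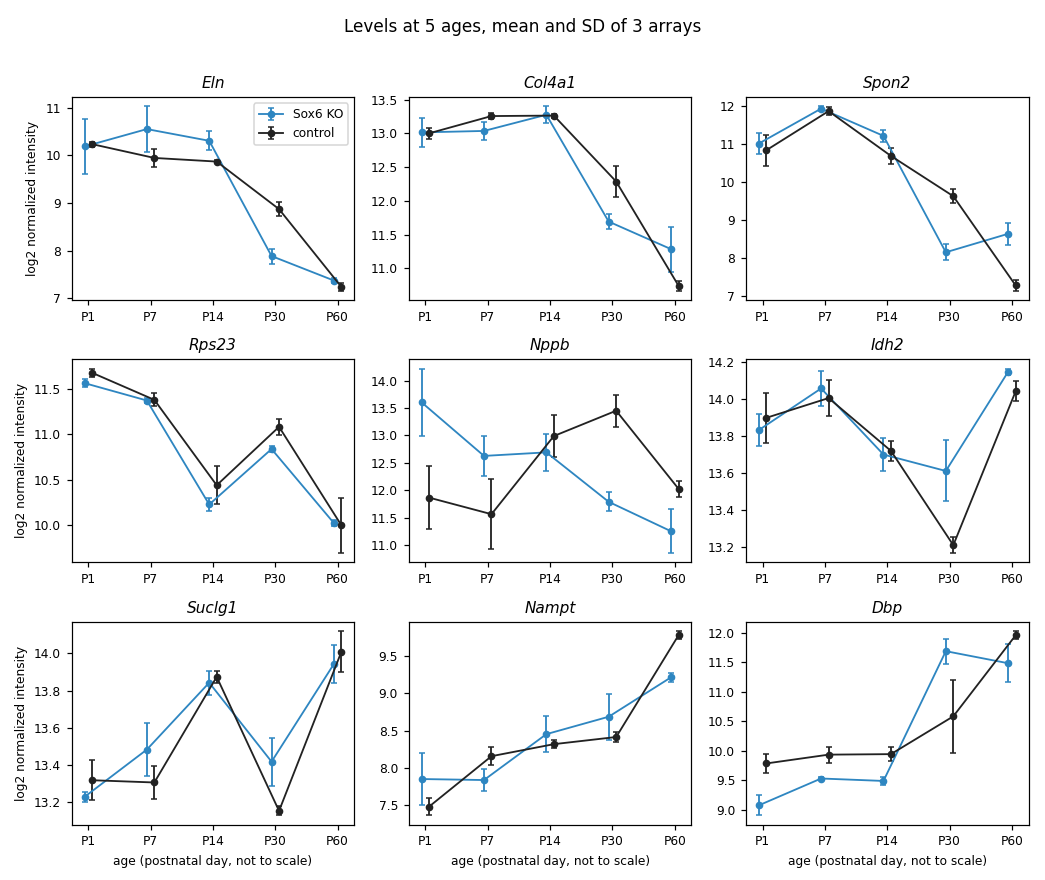
Mean and SD of log2 normalized intensity over 3 arrays at P1, P7, P14, P30 and P60 for 9 genes, in Sox6 KO (blue) and control (black) ventricles. In control *Eln*, *Col4a1* and *Spon2* are lowest at P60, *Rps23* is higher at P30 than at P14 or P60, *Idh2* and *Suclg1* have a trough at P30, and *Nampt* and *Dbp* are highest at P60.

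Whether the step from P30 to P60 was the same in the Sox6 KO ventricle was asked with the interaction of genotype and age. It passed an adjusted p of 0.05 for 428 of 17997 probes (2.38%), and for 213 of the 6258 named genes (3.40%). Under median scaling 220 probes passed, and without control P30 replicate 2 there were 278. Among the 138 named genes called higher in control, the median log2 change was 0.48 in KO and 0.71 in control, and among the 175 called lower it was -0.35 in KO and -0.73 in control. The interaction itself passed for 31 of the 138 and for 57 of the 175. These genes were chosen on their change in control, so the medians and counts describe them and test nothing.

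Matrix genes accounted for 19 of the 213 named genes. From P30 to P60 in KO, 12.5% of the named genes were higher and 8.61% lower. Over the 4 matrix lists together (68 genes), 16 were lower and 4 higher from P30 to P60 in KO, with a median of -0.16, against 39 lower and 3 higher in control, with a median of -0.36. The interaction passed for 19, of which 16 were in the direction of a smaller decline in KO or a rise there. The lists were taken with the control counts known, which favours this direction. *Spon2* gave 8.69, 8.91 and 8.33 at P60 and 8.35, 8.19 and 7.93 at P30 in KO ventricles, a change of 0.49 against -2.35 in control (interaction 2.83, adjusted p = 4.02e-08). *Fbn1* gave 8.79, 8.56 and 8.50 at P60 and 8.94, 8.98 and 8.81 at P30 in KO, a change of -0.29 against -1.48 (adjusted p = 4.73e-06). *Loxl1* changed by 0.09 in KO and by -1.08 in control (adjusted p = 2.66e-06), *Mfap4* by -0.02 and -1.16 (adjusted p = 5.67e-04) and *Col4a1* by -0.41 and -1.55 (adjusted p = 4.56e-04). For each of these genes KO began lower. KO and control means at P30 were 8.16 and 9.63 (*Spon2*), 8.91 and 9.39 (*Fbn1*), 9.94 and 10.42 (*Loxl1*), 7.66 and 8.58 (*Mfap4*), and 11.69 and 12.29 (*Col4a1*). At P60 they were, in that order, 8.64 and 7.29, 8.62 and 7.91, 10.03 and 9.35, 7.64 and 7.42, and 11.28 and 10.74. For *Col1a1* (-0.88 in KO and -1.56 in control) and *Serpinh1* (-0.69 and -1.08) the interaction did not pass (adjusted p = 0.243 and 0.286). For *Eln* the genotypes lay closer at P60 than at P30, as KO gave 7.40, 7.30 and 7.42 at P60, near the control values of 7.30, 7.15 and 7.27, but 7.998, 7.96 and 7.71 at P30, below 8.74, 9.03 and 8.86 in control (interaction adjusted p = 0.0214, and up to 0.0677 with 1 control array left out). Fibroblast markers summed to 16988 to 19574 at P60 and 21359 to 22955 at P30 in KO, and macrophage markers to 3896 to 5439 and 4069 to 4228. Endothelial markers summed to 6980 to 7907 at P60 and 6688 to 8251 at P30 in KO and so overlapped, unlike in control, and pericyte and smooth muscle markers to 4770 to 6488 and 7602 to 8885. Their part in the difference was not tested.

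The change of clock genes, and of genes that moved with them, also differed between the Sox6 KO and control arrays. The hour of collection is not stated for either genotype, so genotype and collection time cannot be told apart here. The part of collection time in this difference was not tested. *Per2* gave 7.77, 8.06 and 8.67 at P60 and 8.06, 8.28 and 8.70 at P30 in KO, a change of -0.17 against 1.49 in control (interaction -1.66, adjusted p = 0.00131). *Dbp* changed by -0.21 in KO and 1.38 in control (adjusted p = 6.80e-04), *Tef* by -0.59 and 0.92 (adjusted p = 1.14e-04), *Per1* by -0.81 and 0.84 (adjusted p = 0.0115, and up to 0.0518 with 1 control array left out) and *Rhobtb1* by -0.69 and 1.10 (adjusted p = 1.71e-04). *Nr1d1* and *Nfil3* did not pass (adjusted p = 0.156 and 0.212). *Nampt*, in contrast, was higher at P60 in both genotypes, by 0.53 in KO and 1.37 in control (adjusted p of the interaction 0.0159). No clock gene was higher at P60 in KO at an adjusted p under 0.05 and 2 were lower. For the ribosomal proteins the interaction passed for 2 of 55. For sarcomere, citric acid cycle and amino acid breakdown genes it passed for 1 of 30, 0 of 30 and 0 of 20. It passed for 5 of 15 fasting genes and 3 of 33 fatty acid genes, against 3.40% of all named genes. From P30 to P60 in KO, 6 ribosomal protein genes were higher and 14 lower. Citric acid cycle genes numbered 4 higher and 1 lower there, and amino acid breakdown genes 3 and 2. An interaction that did not pass does not show an equal change in both genotypes.

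**Figure D5:**
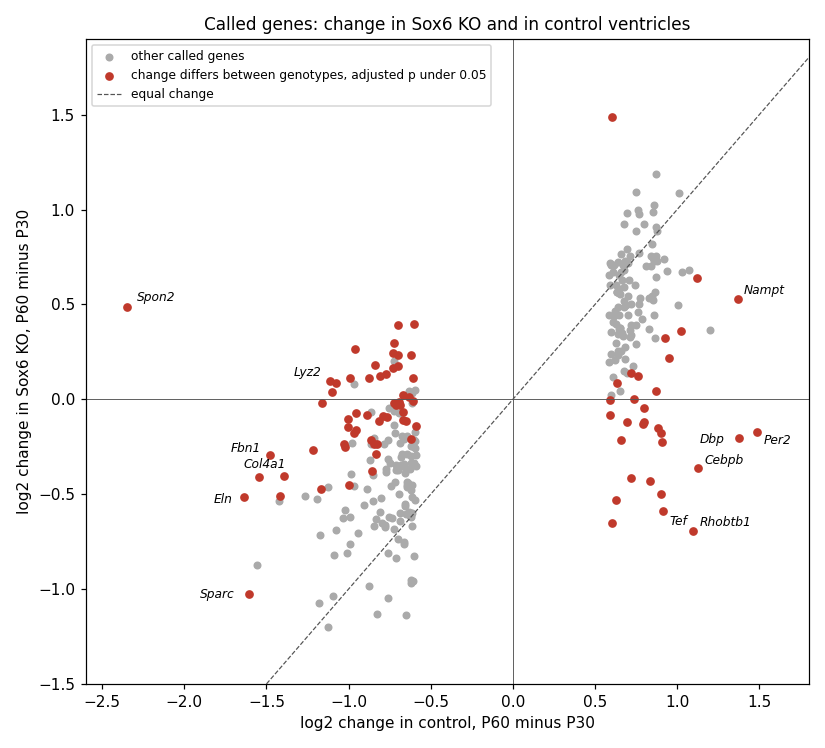
Log2 change from P30 to P60 in Sox6 KO (vertical axis) against that in control ventricles (horizontal axis) for the 313 named genes called in control, with genes whose change differed between genotypes at an adjusted p under 0.05 in red and equal change as a dashed line. *Spon2* lies near 0.49 in KO against -2.35 in control, and *Per2*, *Dbp*, *Tef*, *Cebpb* and *Rhobtb1* lie below 0 in KO and above 0 in control.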

How the data were processed

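Biotin-labelled cRNA of ventricles from male mice was hybridised to bead arrays. The deposited table of the whole series holds intensity values that the authors had not normalized, for 46255 rows and 30 arrays. A second deposited table, of 6784 probes, matched quantile normalization of those probes within 4.8e-10 on the log2 scale and served as an alternative. The study's notes name IlluminaExpressionFileCreator without, in the sources used here, its version or how background was set.

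Intensities were quantile normalized and log2 transformed. The background threshold of an array was 2 SD over the mean of 936 control rows, read as negative controls by their probe IDs. A probe was tested if some group among the 10 had it over this threshold in each of its 3 arrays. Names came from the platform's annotation and probe columns of the study's supplementary tables. limma 3.58.1 (R 4.3.3) fitted 10 group means over the 30 arrays, so the spread is shared by all groups, and p-values were adjusted by Benjamini-Hochberg over all tested probes. A gene in a list was represented by its probe with the highest mean. The interaction is the KO change minus the control change.

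Named genes were the 15 with the largest change each way, up to 6 members of each described list by adjusted p with every member of a minority direction or of a count of 5 or fewer, all measured clock genes and the defining and most abundant cell markers. Genes, lists and tests were chosen with earlier results of these data known, and the 23 lists described of 43 were taken after the list counts had been seen. Alternatives were median scaling, normexp correction, other probe filters, fewer arrays, the second table, a replicate block and leaving out each array. The number of arrays limits the precision.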

Additional observations from a re-analysis of the deposited data

Results flagged for a closer look

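The change from P30 to P60 differed between Sox6 KO and control ventricles for 52 of the named probes (limma interaction, adjusted p under 0.05), and each value here is the log2 change in KO minus that in control. Of these probes, 43 passed under median scaling as well, 36 passed with each of the 6 control arrays left out in turn, and all 52 kept their sign in these fits. *Csnk1e* passed in 0 of the 7 further fits, *Cldn5* and *Tmsb10* in 1, *Tcap*, *Pfkfb2*, *Dpt* and *Laptm5* in 2, *Emcn*, *Marcks* and 1 probe of *Sparc* in 3, *Fstl1* in 4, *Eln* in 5, and *Per1*, *Nampt*, *Dag1* and *Lyz1* in 6.

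Named probes were chosen largely by their change in control, which the interaction subtracts, and this favours values of the opposite sign. The split by sign given below therefore describes these probes and tests nothing. Values below 0 belonged mostly to genes that were higher at P60 in control. For the clock and its outputs they were -1.66 for *Per2*, -1.65 for *Per1*, -1.58 for *Dbp*, -1.504 for *Tef* and -0.47 for *Csnk1e*. For genes of stress, fasting and NAD salvage they were -1.49 for *Cebpb*, -1.24 and -1.08 for the 2 probes of *Herpud1*, -0.84 for *Fbxo32*, -0.84 for *Nampt* and -0.81 for *Klf9*. For lipid and sugar metabolism they were -1.40 for *Dgat2*, -0.66 for *Acadm* and -0.60 for *Pfkfb2*. Muscle and signalling genes gave -1.79 for *Rhobtb1*, -1.25 for *Amy2b*, -0.91 for *Tcap*, -0.88 for *Scn4b*, -0.67 for *Dynll2* and -0.48 for *Tmod4*, and matrix and adhesion genes gave -0.82 for *Timp3*, -0.70 for *Dag1* and -0.62 for *Lama5*. The lowest value was -2.97 for *Myl4*, the atrial light chain, which changed by -2.34 in KO and 0.63 in control, and the control change did not pass the test (adjusted p = 0.371).

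Values above 0 belonged to genes that were lower at P60 in control, apart from *Laptm5*, whose control change of -0.31 did not pass (adjusted p = 0.0759). Fibre and secreted matrix genes gave 2.83 for *Spon2*, 1.18 for *Fbn1*, 1.16 for *Loxl1*, 1.14 for *Mfap4*, 1.12 for *Eln*, 0.86 for *Col6a3*, 0.83 and 0.58 for the 2 probes of *Sparc* and 0.68 for *Bgn*. Basement membrane collagens gave 1.14 for *Col4a1*, 0.91 for *Col4a2* and 0.54 for *Col4a5*, and matrix proteases gave 0.88 for *Mmp14*, 0.69 for *Mmp2* and 0.65 for *Adamts2*. Fibroblast genes gave 1.02 for *Cd248*, 0.95 for *Fstl1* and 0.60 for *Dpt*, macrophage genes 1.21 for *Lyz2*, 0.88 for *Lyz1* and 0.71 for *Laptm5*, and endothelial genes 0.79 for *Cldn5* and 0.57 for *Emcn*. A probe of *Lyz1* or *Lyz2* may bind both of these near-identical genes. Cytoskeletal genes gave 0.99 for *Tmsb10*, 0.75 for *Dynll1* and 0.64 for *Marcks*, and the remaining values were 1.10 for *H19* and 0.84 for *Cdkn1a*.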

How the results depend on the processing

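The number of probes called higher was 157 under median scaling, 753 after normexp correction with negative controls and 141 of the 6784 probes of the processed table, and 220 to 259 with 1 of the 6 arrays left out. The number called lower was 794 with that correction, 189 in the processed table and 265 to 359 with 1 array left out. Of the 547 calls, 438 remained under median scaling, 532 after the correction and 458 to 498 with 1 array left out, and all kept their sign. The interaction passed for 220 probes under median scaling and for 278 (without control P30 replicate 2) to 426 with 1 control array left out, the last a setting added after seeing the data. Under median scaling the higher genes were 7 for fatty acids, 6 for the citric acid cycle and 2 for complex I. With the normexp correction there were 3 higher and 3 lower for complex I, 2 lower for complexes II to V and 2 higher for calcium handling. With no filter, pericyte genes gave 2 lower and the endoplasmic reticulum list 4 lower. With 1 array left out the ranges were 1 to 4 (pericyte, lower), 8 to 12 (actin, lower), 3 to 8 (fasting, higher), 8 to 11 (fatty acids, higher), 6 to 9 (citric acid cycle, higher), 4 to 7 and 3 to 5 (complex I, higher and lower), 1 to 6 (complexes II to V, lower), 1 to 4 (calcium, higher) and 3 to 5 (endoplasmic reticulum, lower). The lower genes for clock and glucose numbered 1 at the fewest. The cause of these moves was not tested. Of 181 named probes past an adjusted p of 0.05, 131 passed in the same direction in every fit checked for named probes, and 0 turned round. Those fits were median scaling, normexp with negative controls, no filter, only the 6 arrays, a replicate block and leaving out each array. Genes that had not passed did turn: under median scaling *Tnnc1* was at 0.036, *Myl3* at 0.080, *Myh6* at -0.018 and *Nkx2-5* at -0.031, and with 1 array left out *Csf1r* ranged over -0.15 to 0.0054, *Pecam1* over -0.11 to 0.063, *Myh6* over -0.042 to 0.090 and *Nr1d2* over -0.11 to 0.22. With the replicate number as a block, 242 probes were called higher and 305 lower, the interaction passed for 441, and 3 named genes no longer passed (*Kcnj8*, *Cox5a* and *Jph1*). Deviations of same-numbered P60 and P30 arrays correlated at 0.03, -0.04 and 0.08, and those of differently numbered arrays at -0.11 to 0.08. So few arrays cannot decide whether the numbers pair the samples.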
